A study of Mus musculus with 6 samples.

Results

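Diacylglycerol kinases convert the lipid second messenger diacylglycerol into phosphatidic acid. The mouse genome encodes 10 of them, and all 10 were taken here by gene symbol from the 52636 gene rows of the count table. The list was chosen by family name with the fold changes between tuft-like and non-tuft-like libraries in view, so it counts as selected on those values, and the levels and fold changes of its members are given as a description. The members went through the fit across all genes. No p-value of theirs is printed, and nothing is read from how many of them passed its test. RNA had been sequenced from sorted medullary thymic epithelial cells (mTEC) of C57BL/6 mice at 6 weeks of age, in triplicate for tuft-like and for non-tuft-like cells, which gave 3 libraries each. Both populations bound the lectin UEA1, were low for MHCII and lacked Sca1 and CD63. The labels give them as negative for CD80, where the study describes this class of mTEC as low for it. Tuft-like cells carried both CD117 and CD66a on their surface, and non-tuft-like cells carried neither. No transgene or treatment is named for either. The labels do not say whether replicate libraries came from separate mice, so p-values measure the spread between these libraries, which may be technical.

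Diacylglycerol is released at the plasma membrane when phospholipase C cleaves phosphatidylinositol 4,5-bisphosphate, together with inositol trisphosphate, which opens calcium channels of the endoplasmic reticulum. It recruits proteins with C1 domains, among them protein kinases C, RasGRP exchange factors and chimaerins, until a diacylglycerol kinase removes it. Tuft cells, the chemosensory cells of many epithelia, signal through a taste-like cascade in which phospholipase C beta 2 stands upstream of the cation channel Trpm5. In thymocytes and T cells, Dgka and Dgkz are known to dampen signalling from the antigen receptor.

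The members fall into 5 structural types. Type I (Dgka, Dgkb, Dgkg) has calcium-binding EF hands, type II (Dgkd, Dgkh, Dgkk) a pleckstrin homology domain, type III (Dgke) no further regulatory domain, type IV (Dgki, Dgkz) ankyrin repeats, and type V (Dgkq) an additional cysteine-rich domain. What all of them share is the catalytic domain, whose glycine-rich loop binds ATP. The coding stretch of 42 bases around this loop is shown for each member, because the loop lies in a domain that all 10 have in common. It was read from GENCODE M21 transcripts of mm10 (GRCm38), 5′ to 3′, and the 12 capitals mark the codons of the loop's glycine-glycine-aspartate-glycine motif, which occurred exactly once in the longest coding sequence of each of the 10 members.
Dgka: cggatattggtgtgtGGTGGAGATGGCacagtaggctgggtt
Dgkb: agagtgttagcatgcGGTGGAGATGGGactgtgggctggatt
Dgkg: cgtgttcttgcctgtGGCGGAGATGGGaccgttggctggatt
Dgkd: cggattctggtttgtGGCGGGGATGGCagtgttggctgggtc
Dgkh: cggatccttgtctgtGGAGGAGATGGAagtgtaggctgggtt
Dgkk: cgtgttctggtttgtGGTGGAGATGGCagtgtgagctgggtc
Dgke: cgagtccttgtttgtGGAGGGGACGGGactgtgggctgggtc
Dgki: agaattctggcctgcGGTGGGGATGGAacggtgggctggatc
Dgkz: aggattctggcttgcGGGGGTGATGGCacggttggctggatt
Dgkq: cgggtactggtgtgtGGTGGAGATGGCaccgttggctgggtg
Of the 42 positions, 23 held the same base in all members. All stretches lie in coding exons. On the plus strand these are Dgkb at chr12:38214334-38214375, Dgkd at chr1:87921604-87921645, Dgkk at chrX:6904727-6904768. On the minus strand they are Dgka at chr10:128728269-128728310, Dgkg at chr16:22562711-22562752, Dgkh at chr14:78616515-78616556, Dgke at chr11:89050699-89050740, Dgki at chr6:37034686-37048149, Dgkz at chr2:91939653-91939782, Dgkq at chr5:108650566-108650607. In Dgki and Dgkz the stretch is divided between 2 exons, so that these coordinates include an intron. Dgki differed from its type IV partner Dgkz at 7 of these positions and from Dgkk at 12. Over the aligned residues of each pair of proteins, gaps left out, identity was 43.0% to 66.8% for the 7 pairs within a type. It was 27.3% to 38.6% for the 38 pairs between types. Dgki and Dgkz were 63.6% identical, and Dgkk shared 44.2% with Dgkh and 43.0% with Dgkd. Stretches of 31 bases were shared between transcripts of only 2 pairs, 4 such stretches between Dgkb and Dgkg and 10 between Dgkh and Dgke, and neither pair includes Dgki or Dgkk.

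Gene counts per library totalled 20097617 to 48369825. Levels are given as CPM, counts scaled to library size with TMM factors, and log2FC is the log2 fold change with the non-tuft-like level as the base, SE its approximate standard error, and library values are listed in the order of replicates 1, 2 and 3. All 15 tuft cell markers on the list used passed edgeR's quasi-likelihood test at a false discovery rate (FDR) of 0.05, each with a higher level in tuft-like mTEC, and their summed level ranged from 11700 to 19530 CPM there against 663.6 to 831.1 CPM in non-tuft-like mTEC. Ceacam1, which encodes CD66a, differed by 4.12 (edgeR FDR 0.000886), and Kit, which encodes CD117, by 1.24 without passing the threshold (edgeR FDR 0.0678). The 4 epithelial markers summed to 5064 to 6072 CPM in non-tuft-like against 5304 to 11670 CPM in tuft-like libraries. Some libraries stood apart. Tuft-like replicate 1 had 61.6% of its reads in the no-feature class, reads that HTSeq matched to no counted feature, and tuft-like replicate 3 had 19.7%. The mean level of 1134 olfactory receptor genes, which stand here for stray reads and low-level transcription, was 0.644 and 0.0666 CPM per kb of exon in these libraries.

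Of the 10 kinases, Dgki and Dgkk stood far higher in tuft-like mTEC. The other 8 differed by less than 1 on the log2 scale in the main fit. All 10 passed the filter on low counts, with 18 to 8322 counts in a library. Dgki and Dgkk were the 2 members past the FDR threshold of edgeR's quasi-likelihood test, both higher in tuft-like mTEC. Of all 32496 genes tested, 2.11% were past it in either direction, 1.16% upward and 0.951% downward in tuft-like cells. Libraries of the populations did not overlap for 3 members, Dgki, Dgkk and Dgkg, all higher in tuft-like cells, where 16.0% of all genes did not overlap, 7.18% being higher and 8.85% lower. Without tuft-like replicate 2, Dgki alone was past the threshold. Since the family was chosen for this contrast, nothing is read from these counts. In bulk RNA, fewer cells that carry a transcript and less of it per cell cannot be told apart. The median log2FC was 0.08 over the 10 members and 0.02 over all genes tested.

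**Figure D1:**
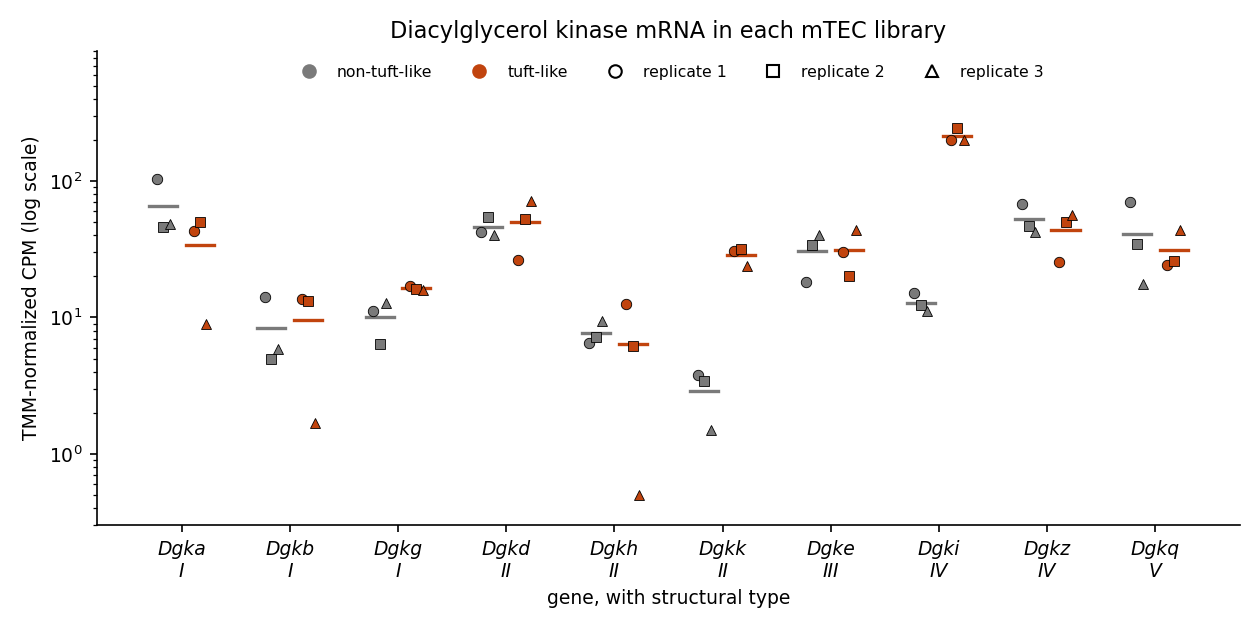
TMM-normalized CPM (log axis) of each diacylglycerol kinase in the 3 non-tuft-like (grey) and 3 tuft-like (orange) libraries, with point shapes for replicate numbers and horizontal lines for group means. Dgki lies at 11.1 to 14.99 CPM in non-tuft-like against 199.0 to 243.3 CPM in tuft-like libraries, and Dgka, Dgkb and Dgkh have their lowest point in tuft-like replicate 3.

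Dgki (ENSMUSG00000038665, chromosome 6 of mm10, 36846022 to 37300184, minus strand) encodes a type IV kinase known from neurons, where it acts on diacylglycerol at synapses. It had 14.99, 12.3 and 11.1 CPM in non-tuft-like libraries and 201.0, 243.3 and 199.0 in tuft-like ones. The lowest tuft-like library thus lay far above the highest non-tuft-like one, and the replicates of each population were close to each other. The means were 12.8 ± 1.99 and 214.4 ± 25.0 CPM (SD, n = 3 libraries each), a ratio of 16.7. Its log2FC was 4.07 (SE 0.30), above that of 99.41% of all genes tested. Its value stayed between 3.95 and 4.18 with each library left out in turn.

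Dgkk (ENSMUSG00000062393, chromosome X, 6779306 to 6948363, plus strand) encodes a type II kinase. It had 3.79, 3.45 and 1.49 CPM in non-tuft-like libraries and 30.6, 31.8 and 23.9 in tuft-like ones. Again every tuft-like library was above every non-tuft-like one. The means were 2.91 ± 1.24 and 28.7 ± 4.27 CPM (SD, n = 3), a ratio of 9.88, and the log2FC was 3.30 (SE 0.56). With each library left out in turn it lay between 2.97 and 3.51. No other gene overlaps the exons of Dgki or Dgkk.

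The relatives of these genes within their types did not follow them. Dgkz, the other type IV member, had 67.7, 47.1 and 42.3 CPM in non-tuft-like libraries and 25.6, 49.8 and 56.0 in tuft-like ones, and the populations overlapped. Its log2FC was -0.26 (SE 0.36), with 0.02 without tuft-like replicate 1 and -0.51 without tuft-like replicate 3. Of the type II members, Dgkd had 42.1, 54.5 and 40.5 CPM in non-tuft-like libraries and 26.3, 52.3 and 70.8 in tuft-like ones, where the spread was wider. Its log2FC was 0.13 (SE 0.38) and became -0.26 without tuft-like replicate 3 and 0.44 without tuft-like replicate 1. Dgkh, the closest relative of Dgkd in sequence, had 6.50, 7.24 and 9.44 CPM in non-tuft-like libraries and 12.6, 6.20 and 0.497 in tuft-like ones. The tuft-like values therefore lay on either side of the non-tuft-like ones, and the log2FC of -0.27 (SE 1.002) became 0.24 without tuft-like replicate 3 and -1.20 without tuft-like replicate 1. Part of the Dgkh exons, 819 bp, is shared with Gm48998 on the same strand.

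**Figure D2:**
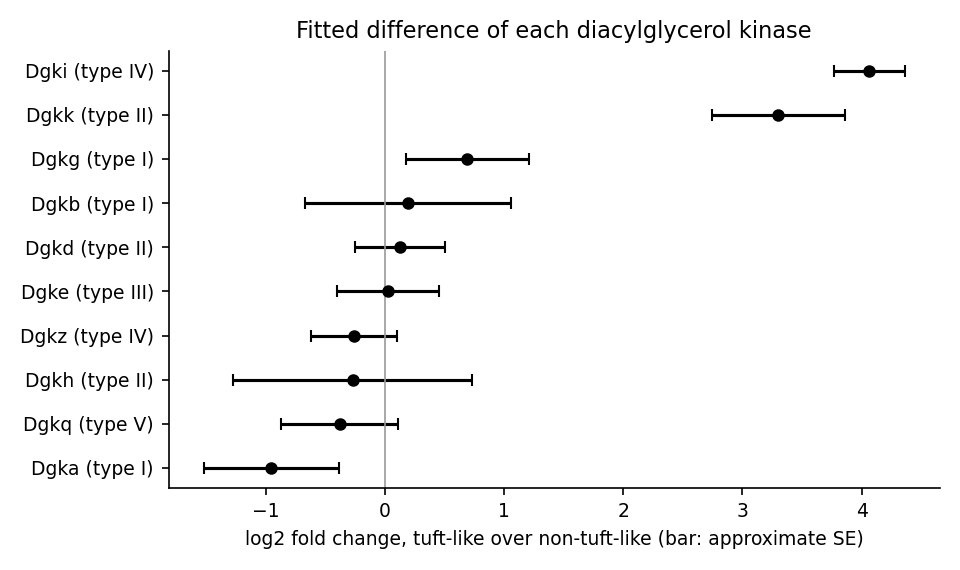
Log2FC of tuft-like over non-tuft-like mTEC for each diacylglycerol kinase from edgeR's fit across all genes, with bars for the SE. Dgki at 4.07 and Dgkk at 3.30 stand apart from the other 8 members, which range from -0.95 (Dgka) to 0.69 (Dgkg).

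The type I kinases, which respond to calcium, had unlike values. Dgka had 103.0, 46.1 and 48.2 CPM in non-tuft-like libraries and 43.2, 49.9 and 8.98 in tuft-like ones. The values of the populations overlapped, with a single high library among the non-tuft-like and a single low one among the tuft-like. Its log2FC of -0.95 (SE 0.57) was -0.47 without non-tuft-like replicate 1 and -0.54 without tuft-like replicate 3. With each library left out in turn it lay between -1.345 (without tuft-like replicate 2) and -0.47. Thymocytes are known to express Dgka, and 13 of the 14 thymocyte markers could be tested, none of which passed the threshold. The 14 together had 27.7, 55.2 and 35.3 CPM in non-tuft-like libraries and 65.0, 45.0 and 44.6 in tuft-like ones. Of these sums, Themis alone made up 2.15, 5.45 and 3.21 CPM in non-tuft-like libraries and 18.7, 14.0 and 33.4 CPM in tuft-like ones. The part of thymocytes in the Dgka values was not tested. Dgkg had 11.2, 6.37 and 12.8 CPM in non-tuft-like libraries and 16.9, 16.1 and 16.0 in tuft-like ones. These did not overlap, but the gap was small, and the log2FC was 0.69 (SE 0.52). Dgkb had 14.1, 4.98 and 5.91 CPM in non-tuft-like libraries and 13.7, 13.2 and 1.69 in tuft-like ones, which overlapped. Its log2FC of 0.19 (SE 0.86) became 0.65 without tuft-like replicate 3 and -0.16 without tuft-like replicate 1.

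Dgke, which prefers diacylglycerol with an arachidonoyl chain as it arises from phosphoinositides, had 18.2, 34.2 and 40.0 CPM in non-tuft-like libraries and 30.1, 20.0 and 44.0 in tuft-like ones. The populations overlapped over most of their range, and the log2FC was 0.03 (SE 0.43), between -0.34 and 0.27 with a library left out. Dgkq, the type V member, had 69.8, 34.7 and 17.5 CPM in non-tuft-like libraries and 24.4, 26.0 and 43.5 in tuft-like ones. The tuft-like values lay within the non-tuft-like range, and the log2FC was -0.38 (SE 0.49). Omission of non-tuft-like replicate 1 turned it to 0.23, and omission of non-tuft-like replicate 3 gave -0.77. Of its 7189 exonic bases, 2214 overlap Idua and Tmem175 on the other strand, and since whether counting used strand is not given in the sources used here, reads of these genes cannot be told apart there. For the remaining members such overlap was at most 222 bp. The 8 members other than Dgki and Dgkk together had 261.5 ± 62.3 CPM in the non-tuft-like population against 222.6 ± 26.1 CPM in the tuft-like one (SD, n = 3), so the summed level of the family, 277.2 ± 65.1 and 465.8 ± 42.1 CPM, was higher in tuft-like mTEC through Dgki and Dgkk.

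Levels of different genes were compared per kb of exon. In non-tuft-like mTEC, Dgka came first with 13.8 ± 6.77 CPM per kb, followed by Dgkz (8.35 ± 2.15), Dgkd (6.67 ± 1.12), Dgkq (5.66 ± 3.71) and Dgke (3.67 ± 1.35; SD, n = 3 for each). Each of these means differed from the next by less than the larger of their standard deviations. Dgki followed with 2.05 ± 0.32 CPM per kb, below Dgke by more than that, and then Dgkg with 1.09 ± 0.36 (SD, n = 3). The tuft cell markers summed to 663.6 to 831.1 CPM in non-tuft-like libraries against 11700 to 19530 CPM in tuft-like ones. The part of tuft-like cells in the non-tuft-like Dgki level was not tested. Dgkb, Dgkh and Dgkk had the lowest levels per kb, between 0.407 and 0.732, and did not differ from their neighbours beyond their spread. In tuft-like mTEC, Dgki came first with 34.4 ± 4.01 CPM per kb, clear of every other member. The next 3, Dgkd (7.27 ± 3.27), Dgka (7.15 ± 4.61) and Dgkz (6.99 ± 2.56), could not be ranked within their spread, nor could Dgkq (4.36 ± 1.48), Dgkk (4.02 ± 0.60) and Dgke (3.74 ± 1.44; SD, n = 3 for each). Dgkg (1.76 ± 0.06), Dgkb (0.836 ± 0.597) and Dgkh (0.378 ± 0.356) came last, and the last pair did not differ beyond its spread. In share of the summed level per kb, Dgki made up 4.88% ± 0.52 in non-tuft-like and 48.5% ± 2.33 in tuft-like mTEC (SD, n = 3). Dgka, at 31.1% ± 6.68 in non-tuft-like mTEC, made up 10.05% ± 6.37 in tuft-like mTEC (SD, n = 3).

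**Figure D3:**
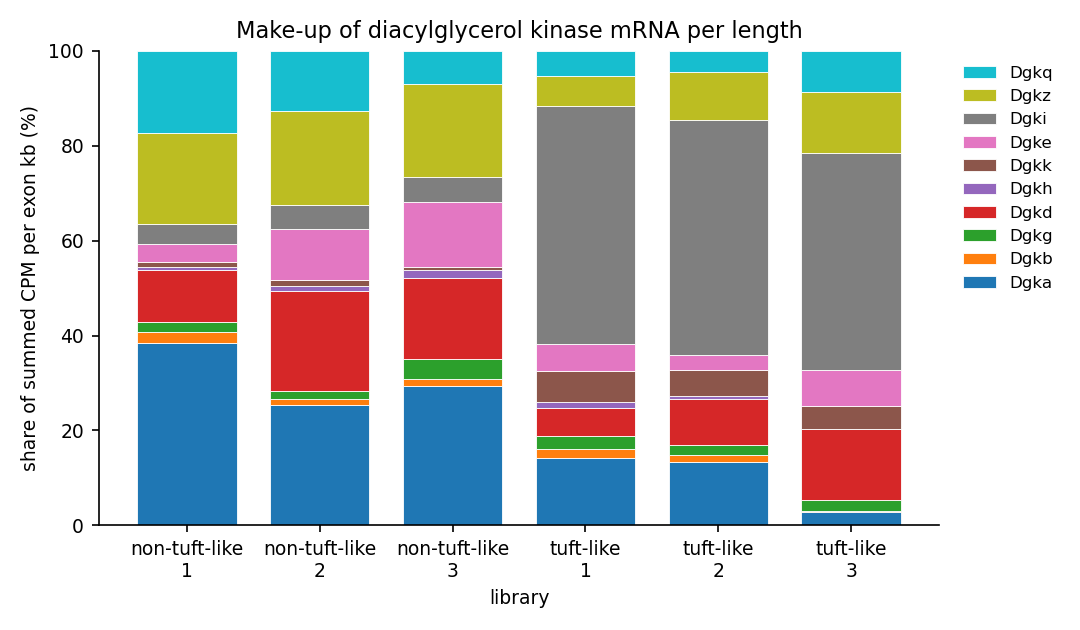
Share (%) of each member in the summed CPM per exon kb of the 10 diacylglycerol kinases, with 1 stacked bar per library. Dgki fills 45.8% to 50.1% of the tuft-like bars and 4.27% to 5.20% of the non-tuft-like bars.

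Olfactory receptor genes, which mTEC may express at a low level among their tissue-restricted antigens, gave a level to set the members against. Their 99th percentile lay between 1.24 and 2.75 CPM per exon kb in the 6 libraries. Dgka, Dgkd, Dgke and Dgkz were above it in all 6 libraries, and Dgkb and Dgkh in none. Dgki was above it in all 3 tuft-like libraries, with 31.9 to 39.0 CPM per kb, and in 2 non-tuft-like libraries, replicate 3 being the exception. Dgkk was above it in all 3 tuft-like libraries, with 3.33 to 4.44 CPM per kb, and in no non-tuft-like library. Dgkg was above it in tuft-like replicate 3 alone, where the percentile was lowest. Dgkb and Dgkh were lowest in that same library, in which the olfactory receptor genes were lowest too, and the part of such reads in their values was not tested.

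**Figure D4:**
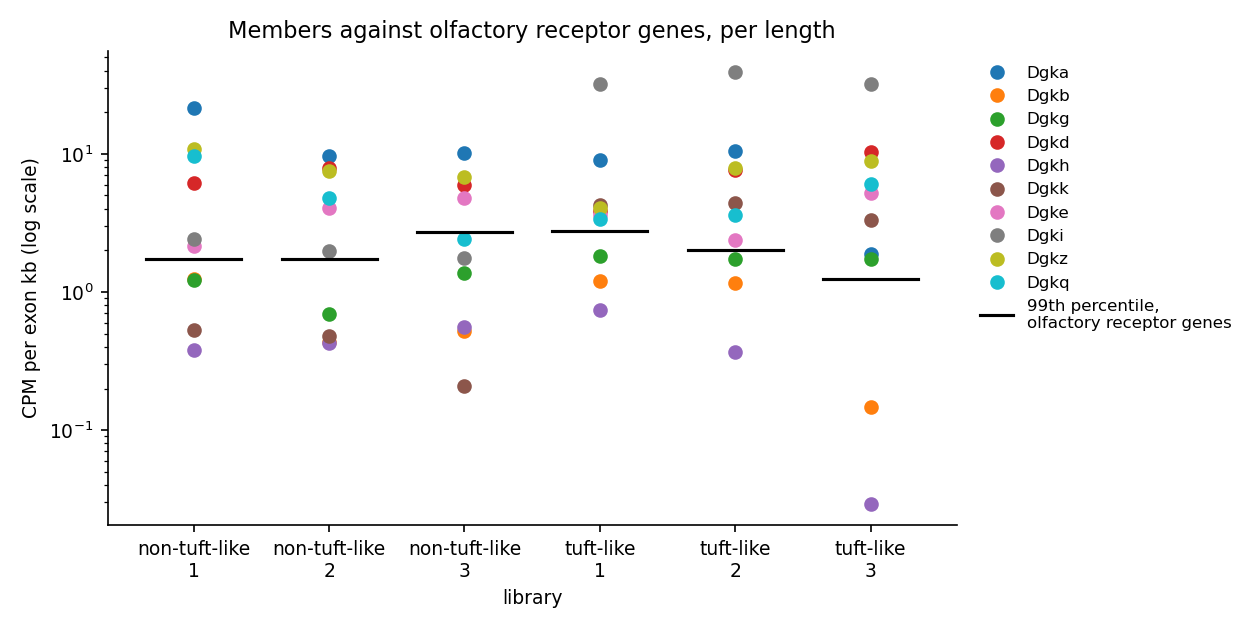
CPM per exon kb (log axis) of each diacylglycerol kinase in each of the 6 libraries, with a black line for that library's 99th percentile over olfactory receptor genes. Dgki lies above the line in 5 libraries and Dgkk in the 3 tuft-like ones, while Dgkb and Dgkh stay below it throughout.

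Markers of other cells moved with the populations in part. The 7 endothelial markers summed to 44.9 to 68.9 CPM in non-tuft-like against 176.2 to 363.7 CPM in tuft-like libraries, of which Tek, the 1 of the 7 that passed the threshold, made up 141.8 to 225.0 CPM, while the defining markers Pecam1 and Cdh5 reached 106.3 and 11.1 CPM in tuft-like replicate 1 and at most 8.16 and 2.54 CPM in the other tuft-like libraries. Without that library the log2FC values of Dgki and Dgkk were 4.11 and 3.26. The 8 fibroblast markers ranged from 48.9 to 78.2 CPM and from 38.8 to 198.7 CPM in the non-tuft-like and tuft-like libraries. None of them passed. The 6 B cell markers ranged from 20.8 to 30.1 CPM and from 66.5 to 101.8 CPM, of which Cd79b alone made up 47.9 to 101.5 CPM in tuft-like libraries, and it was the 1 that passed, while Cd79a, its partner in the B cell receptor, was at most 1.61 CPM in any library. The 10 macrophage and dendritic cell markers ranged from 269.7 to 404.1 CPM and from 143.4 to 237.3 CPM. Of these sums, Lyz2 alone made up 137.5 to 301.5 CPM in non-tuft-like and 112.6 to 170.2 CPM in tuft-like libraries. The 6 mast cell markers ranged from 3.15 to 11.8 CPM and from 0.0829 to 14.6 CPM. Cd68 fell, and no other gene of these lists passed. No marker was at 0 in all 6 libraries, and the part of such cells in the kinase levels was not tested beyond these values.

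Around the family, 68 genes were examined in the same fit. They make, sense or remove diacylglycerol or phosphatidic acid, belong to the inositol trisphosphate branch or encode related lipid kinases. All 68 were tested, and 8 (11.8%) passed the threshold, 5 upward and 3 downward in tuft-like mTEC, beside 2.11% of all genes tested. The list was drawn up with earlier results of these data known, so nothing is read from the difference between these shares. The other 60 did not pass it. The median log2FC was 0.07 over the 68 genes and 0.02 over all genes tested. The calls of Plcb2, Plcg2, Chn2 and Sphk1 held under all 13 alternative settings.

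Of 13 phospholipase C genes, which produce diacylglycerol, 2 rose and 1 fell. Plcb2, the isoform of taste and tuft cells, had 156.3, 139.6 and 103.2 CPM in non-tuft-like libraries and 1276, 1792 and 2010 in tuft-like ones. The populations were far apart, and the log2FC was 3.67 (SE 0.38, edgeR FDR 0.000886). Plcg2, which is switched on by tyrosine kinases, rose from 58.6 ± 2.59 to 444.2 ± 103.8 CPM on average (SD, n = 3), which is a log2FC of 2.92 (SE 0.30, edgeR FDR 0.000886). Plcd1 fell by 1.82 on the log2 scale, from 40.5 ± 3.01 to 11.4 ± 2.07 CPM (SD, n = 3, edgeR FDR 0.0276), but lost the call in 5 of 6 omissions of a library (edgeR FDR up to 0.161). The median of the 13 genes was -0.36.

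Of 22 proteins that diacylglycerol recruits or gates, 1 passed the threshold. Chn2, which encodes beta-chimaerin, a GTPase-activating protein for Rac with a diacylglycerol-binding C1 domain, had 11.8, 5.60 and 13.1 CPM in non-tuft-like libraries and 109.8, 223.2 and 205.6 in tuft-like ones. Every tuft-like library exceeded the non-tuft-like ones several times over, with a log2FC of 4.14 (SE 0.44, edgeR FDR 0.000937). Its exons overlap other genes on the opposite strand over 617 bp. None of the protein kinase C, protein kinase D or RasGRP genes on the list passed, and the median of the 22 genes was -0.02. At an unadjusted p under 0.05 edgeR gave 3 of the 22, and DESeq2 called 3. Besides Chn2, those under 0.05 in edgeR were Chn1 (log2FC 2.09, edgeR FDR 0.115) and Prkca (log2FC 1.29, edgeR FDR 0.174). Both were higher in tuft-like libraries without overlap.

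Of 7 genes of the inositol trisphosphate branch, Itpr2, a calcium channel of the endoplasmic reticulum, rose from 175.8 ± 13.3 to 812.0 ± 274.6 CPM on average (SD, n = 3), which is a log2FC of 2.21 (SE 0.35, edgeR FDR 0.00814). Omission of non-tuft-like replicate 1 or 2 ended the call (edgeR FDR 0.0561 and 0.0692). Itpr3, chosen after its values were seen because it is the isoform known from taste cells, was not called (log2FC 0.51, edgeR FDR 1).

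Among 8 genes that supply or remove phosphatidic acid by other routes, 1 rose and 1 fell. Pld2, a phospholipase D that makes it from phosphatidylcholine, rose from 36.0 ± 8.73 to 115.1 ± 33.5 CPM on average (SD, n = 3), which is a log2FC of 1.68 (SE 0.33, edgeR FDR 0.0281). Plpp3, a membrane phosphatase of phosphatidic and lysophosphatidic acid, fell by 1.66 on the log2 scale, from 88.6 ± 19.7 to 28.1 ± 6.13 CPM (SD, n = 3, edgeR FDR 0.0220). The call was lost in 5 of 6 omissions of a library for Pld2 (edgeR FDR up to 0.129) and in 3 of 6 for Plpp3 (up to 0.142).

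No gene passed among the 4 other enzymes that consume diacylglycerol or the 9 genes that return phosphatidic acid to phosphatidylinositol. At an unadjusted p under 0.05 edgeR gave 3 of the 4 and 2 of the 9, and DESeq2 called 1 in either group. Dgat2, which makes triacylglycerol, had 325.9, 333.9 and 385.7 CPM in non-tuft-like libraries and 37.0, 70.2 and 190.9 in tuft-like ones, without overlap (log2FC -1.81, edgeR FDR 0.140). It passed under 6 of the 13 alternative settings, among them omission of tuft-like replicate 3 (log2FC -2.74, edgeR FDR 0.00509). Daglb, a diacylglycerol lipase that makes an endocannabinoid, had a log2FC of 1.16 (edgeR FDR 0.328). Pitpnc1, a phosphatidylinositol transfer protein, stood at 120.0 ± 12.1 and 277.1 ± 51.1 CPM on average (SD, n = 3; log2FC 1.21, edgeR FDR 0.0572), and it also passed under 6 of 13, among them omission of tuft-like replicate 1 (edgeR FDR 0.0284). Cds1, which makes CDP-diacylglycerol from phosphatidic acid, had a log2FC of -0.94 (edgeR FDR 1).

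Among 5 lipid kinases with a related catalytic domain, Sphk1, which phosphorylates sphingosine, fell by 2.71 on the log2 scale. It had 94.2, 70.6 and 100.7 CPM in non-tuft-like libraries and 12.4, 14.9 and 13.3 in tuft-like ones (SE 0.30, edgeR FDR 0.00120). The populations were clearly apart, and the other 4, Agk, Cerk, Cerkl and Sphk2, did not pass.

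**Figure D5:**
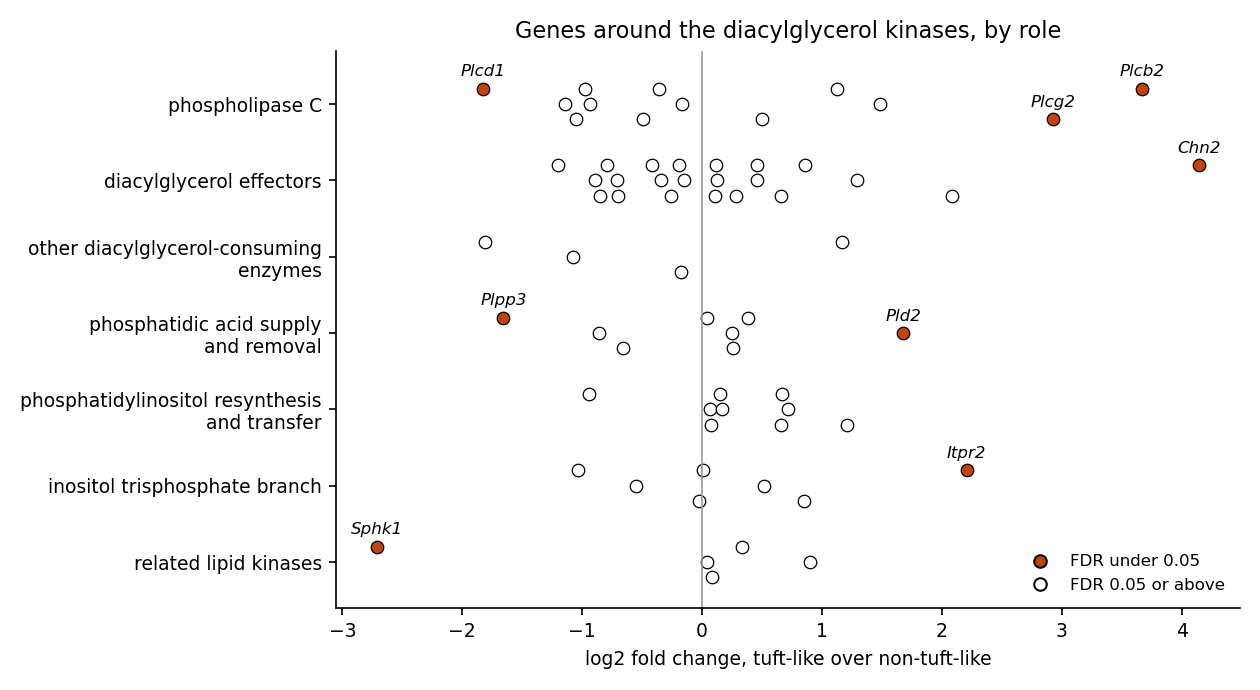
Log2FC of tuft-like over non-tuft-like mTEC for 68 genes around the diacylglycerol kinases, 1 point per gene in rows by role, with filled points for genes past the FDR threshold of 0.05 in edgeR's test. The filled points are Plcb2, Plcg2, Chn2, Itpr2 and Pld2 on the right and Plcd1, Plpp3 and Sphk1 on the left, and most other points lie around 0.

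The patterns most like those of the leading members were sought among 12345 genes of at least 10 CPM in either population, by the Euclidean distance between mean-centred log2(CPM + 0.5) values over the 6 libraries. Nearest to Dgki were Gm26797, a long non-coding RNA (distance 0.56, from 8.71 to 126.8 CPM), A630073D07Rik (0.57, from 10.2 to 167.6 CPM) and Slit2, a secreted axon guidance protein (0.57, from 31.4 to 510.9 CPM), where the median gene lay at 5.10. Nearest to Dgka, the member with the lowest fold change, were Hnf4a, a transcription factor of liver and gut (distance 0.16, 41.2 CPM in non-tuft-like against 19.3 CPM in tuft-like mTEC), Tspan2 (0.47) and Cpeb1 (0.58), where the median gene lay at 2.97. The nearest of 12345 genes are bound to lie below the median. The neighbours of Dgki had similar fold changes (log2FC 3.86, 4.04 and 4.02), the contrast for which the family was chosen. Nothing is read from these distances.

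The start regions of the members, as RefSeq lists them for GRCm38.p6, were searched on both strands in windows of 300 bases, which lie mostly upstream of an annotated start, of which the 10 members had 16. The octamer ATGCAAAT, a motif of the POU factors to which the tuft cell regulator Pou2f3 belongs, was in 0 of these 16 windows and in 1.74% of all 32851 windows. The GC box GGGCGG was in 10 of the 16 and in 35.66% of all windows, and the members without it were Dgki, Dgkk and Dgkb. TATAAA was found for Dgka alone and in 13.62% of all windows. A match or its absence describes these letters in these windows.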

How the data were processed

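Total RNA of each sorted population had been made into sequencing libraries with a SMARTer ultra-low-input kit. Per the labels and the study's methods, the authors trimmed reads with Trimmomatic 0.36, aligned them with STAR 2.7.3a to mm10 and deposited unadjusted read counts per Ensembl gene made with HTSeq. The annotation release and strand setting of the counts are not given in the sources used here. The 92 spike-in and 5 summary lines were left out of library sizes. The no-feature class held 19.7% to 61.6% of the reads, and 20097617 to 48369825 counts per library lay on genes. Gene names, exon lengths and coding sequences came from GENCODE M21, which named 99.72% of the 52636 gene rows, and start windows from RefSeq for GRCm38.p6.

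Counts were filtered with filterByExpr (minimum count 10), TMM-normalized and tested with edgeR 4.0.16 in R 4.3.3 (quasi-likelihood F-test, two-sided, Benjamini-Hochberg adjusted over 32496 genes, FDR threshold 0.05), after tests on simulated data. Standard errors (SE) are approximate, from the fold change and its F statistic. DESeq2 1.42.0, limma 3.58.1 (voom), other scalings and filters, a replicate block and omission of each library were the alternatives. The members, the pathway list, the marker lists and the tests were chosen with earlier results of these data known. Besides all members, the genes named were Kit and Ceacam1, in each pathway role up to 4 genes past the threshold in each direction with the largest fold changes or, where none passed, the 2 with the largest fold changes and at least 10 CPM, and the 3 genes nearest in pattern to Dgki and Dgka. Itpr3, Chn1 and Prkca were named outside this rule. The summed levels of all 8 marker lists are given in the report.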

Additional observations from a re-analysis of the deposited data

Results flagged for a closer look

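In tuft-like replicate 1, 61.6% of the reads were in the no-feature class, above the highest share of any non-tuft-like library (52.5%). These reads themselves entered no comparison. The mean level of olfactory receptor genes, which belongs to the gene counts, was 0.644 CPM per kb of exon in this library and 0.461 in non-tuft-like replicate 3. Its relation to the no-feature reads was not tested.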

How the results depend on the processing

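The number of genes past the FDR threshold of 0.05 was 687 and depended on the processing. It was 1045 with library sizes alone (519 higher, 526 lower, against 378 and 309), 1127 without a filter on low counts and 1904 with DESeq2. With a library left out it ranged from 376 (without tuft-like replicate 2) to 922 (without tuft-like replicate 3, 310 higher and 612 lower), and was 379 without non-tuft-like replicate 2. Of the 68 pathway genes 8 were past it, 13 with DESeq2, and 4 to 8 with a library left out, with 4 without non-tuft-like replicate 1 or 2 and 5 without tuft-like replicate 2. Of the members 2 were past it, and 1 to 2 with a library left out. The cause of these shifts was not tested. Dgki, Dgkk, Dgka and Dgkg kept the sign of their log2 fold change under all 13 alternatives, while the other 6 members changed it under 1 to 6 of them. Under these alternatives Dgka ranged from -1.345 to -0.473 and Dgkh from -1.4 to 0.24, so both went beyond 1 in some. With the longest transcript as the length, Dgki made up 47.8% of the family's level per kb in tuft-like mTEC, against 48.5%. No pairing of libraries by replicate number was visible. The same-numbered libraries' deviations from their group means correlated at -0.156, -0.061 and -0.326, and 0 of 6 libraries correlated best with its own number. With 3 libraries per population, this cannot show whether same-numbered libraries came from the same mice. With the number as a replicate block 737 genes, 8 pathway genes and 2 members were past the threshold, but Plcd1 was lost (edgeR FDR 0.0503) and Dgat2 gained (edgeR FDR 0.0347). The lowest counts of members were 18 for Dgkh and 61 for Dgkb in tuft-like replicate 3, which had 45928255 counts in all, and 47 for Dgkk in non-tuft-like replicate 3, and counts this low carry a larger counting error.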
